A study of Mus musculus with 12 samples.

Results

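The nuclear factor I (NFI) genes were followed in cells sorted from the embryonic mouse cortex, in the lineages of the medial and the caudal ganglionic eminence (MGE and CGE). The members are all probe sets whose single gene symbol is Nfia, Nfib, Nfic or Nfix, which gave 20 of the 22339 probe sets with 1 symbol, namely 6 for Nfia, 7 for Nfib, 2 for Nfic and 5 for Nfix. A probe set is a group of short oligonucleotides on the array that read 1 transcript or a few related ones. Of the 20, 19 passed the filter on dim probe sets and were tested among 16008 probe sets in all. The remaining Nfic probe set, 1450661_x_at, lay between 4.49 and 5.57 log2 units on all arrays and was not tested.

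NFI proteins are transcription factors that bind as dimers to a palindromic site made of the motif TTGGC and its reverse complement. In the developing mouse brain they are known for their part in the onset of gliogenesis, where NFIA works with SOX9, and in the maturation of neurons and radial glia of the neocortex and hippocampus. Loss of Nfia or Nfib in mice disturbs the formation of the corpus callosum, and Nfix is known for its role in neural progenitors. Nfic is best known outside the brain, from tooth root formation.

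The RNA came from 4 groups with 3 arrays each, whose titles call them biological replicas. MGE cells at E18.5 and MGE cells at E14.5 came from Nkx2-1-Cre;Rosa26R-YFP embryos, in which cells with a history of Nkx2-1 expression are yellow fluorescent. CGE cells at E18.5 and CGE cells at E16.5 came from embryos that carried Nkx2-1-Cre together with a Dlx1-lox-Venus-lox reporter, from which the Cre removes Venus, so that fluorescence stays in Dlx1-expressing cells of lateral and caudal origin. All embryos thus carried Nkx2-1-Cre and were on a mixed C57BL/6/CBA background. Cortices of pooled embryos of both sexes were dissociated, the fluorescent cells were sorted, and their amplified cDNA was hybridised to Affymetrix mouse genome arrays. The number of embryos behind an array is not given, so p-values measure the spread between these arrays only. Nkx2-1-Cre also labels other descendants of the MGE, oligodendrocyte precursors included, and the Dlx1 reporter does not separate CGE from lateral eminence cells. The lineages differ in reporter, and the early comparison also differs in embryonic day, so lineage cannot be told apart from these.

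All values are log2 intensities, and differences keep that scale. Lineage differences are MGE minus CGE, and maturation differences take the earlier day from E18.5. Levels are compared between groups for a given probe set, never between probe sets. The filter level was the 40th percentile of an array, 7.10 to 7.17, and where a group lay below it the size of the fitted difference is uncertain. Because each array holds bulk RNA, a lower value can come from fewer expressing cells or from less RNA per cell, and these cannot be told apart. Within groups, pairs of replicate arrays had r values of 0.972 to 0.995 over all probe sets, and array medians lay between 7.75 and 7.81. The highest r was within MGE cells at E14.5 (0.981 to 0.995). Regulators of the MGE lineage (5 tested genes, among them Lhx6 and Sox6) averaged 11.89 to 12.21 on the MGE arrays and 10.36 to 11.09 on the CGE arrays. Regulators of the CGE lineage (6 genes, among them Sp8 and Nr2f2) averaged 8.48 to 8.93 on the MGE arrays and 11.05 to 11.99 on the CGE arrays. The list means of 7 pan GABAergic genes were 11.02 to 11.36 in MGE cells at E18.5 and 11.73 to 11.95 in the other groups.

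**Figure D1:**
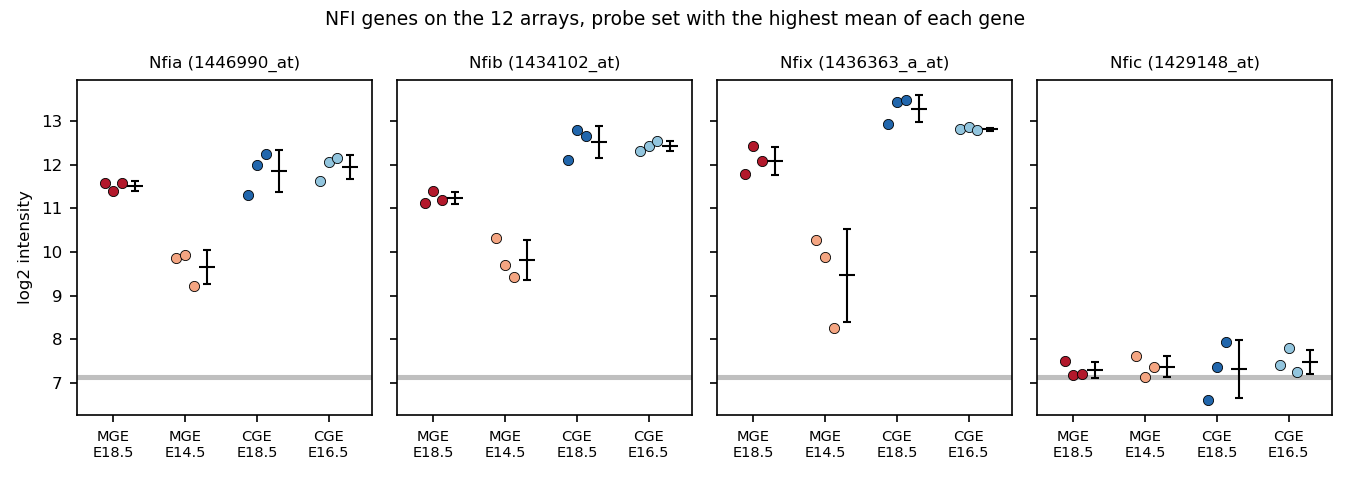
Log2 intensity (y axis) of the brightest probe set of Nfia, Nfib, Nfix and Nfic on each of the 12 arrays, grouped by lineage and embryonic day (x axis). Points are arrays, the bars are mean ± SD of 3 arrays, and the grey band is the filter level of 7.10 to 7.17. MGE cells at E14.5 lie lowest for Nfia, Nfib and Nfix, and the groups overlap for Nfic.

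Nfia, Nfib and Nfix shared a pattern over the 4 groups, while the tested Nfic probe set, close to the filter level, did not show it. Upstream sequences of Nfia, Nfix and Nfic are given as description, and their link to this pattern was not tested. They are the 250 bases before annotated RefSeq starts on GRCm38.p6, given 5′ to 3′ on the strand of the gene. There was 1 start for Nfia, 1 for Nfic and 4 for Nfix, numbered in the order of transcription, and none was used for Nfib. Capitals mark the NFI motif TTGGC, or its reverse complement GCCAA, and the pair of Nfix starts shown are those whose windows hold it. The windows are chr4:97581693-97581942 (plus strand) for Nfia, chr8:84775829-84776078 (minus strand) for Nfix start 2, chr8:84772876-84773125 (minus strand) for Nfix start 4, and chr10:81427174-81427423 (minus strand) for Nfic.
Nfia start 1: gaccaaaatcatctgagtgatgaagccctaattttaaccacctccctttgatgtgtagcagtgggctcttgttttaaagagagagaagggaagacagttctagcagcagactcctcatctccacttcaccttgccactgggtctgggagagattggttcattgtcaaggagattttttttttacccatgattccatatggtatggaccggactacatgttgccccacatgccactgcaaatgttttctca
Nfix start 2: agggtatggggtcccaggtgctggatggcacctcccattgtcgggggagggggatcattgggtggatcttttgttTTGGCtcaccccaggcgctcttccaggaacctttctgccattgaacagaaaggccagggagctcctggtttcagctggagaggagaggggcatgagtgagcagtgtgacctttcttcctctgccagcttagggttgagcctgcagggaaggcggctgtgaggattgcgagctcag
Nfix start 4: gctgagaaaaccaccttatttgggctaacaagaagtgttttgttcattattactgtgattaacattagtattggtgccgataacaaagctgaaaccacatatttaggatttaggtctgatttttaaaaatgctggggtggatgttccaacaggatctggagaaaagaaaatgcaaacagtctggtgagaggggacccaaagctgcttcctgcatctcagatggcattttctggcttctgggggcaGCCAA
Nfic start 1: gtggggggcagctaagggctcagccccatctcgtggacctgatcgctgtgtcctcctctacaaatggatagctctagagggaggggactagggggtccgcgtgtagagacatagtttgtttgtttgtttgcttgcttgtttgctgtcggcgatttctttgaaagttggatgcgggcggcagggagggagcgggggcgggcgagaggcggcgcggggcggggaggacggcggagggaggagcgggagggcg
TTGGC was searched on both strands and lies 175 bases before Nfix start 2 on the plus strand of the gene and 5 bases before Nfix start 4 on the opposite strand. It was absent from the other 4 NFI windows. Of 32851 windows of the same length at annotated mouse starts, 41.5% held it at least once, so it is a common motif. The full palindrome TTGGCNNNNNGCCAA, which contains TTGGC on both strands, was in 12 of the 32851 windows (0.0365%) and in none of the 6 NFI windows. The RBPJ core TGGGAA, bound by the DNA-binding partner of Notch, was in 21.6% of all windows and in none of the 6. The windows also differ in base composition. GC content was 44.8% with 1 CpG for Nfia and 63.2% with 19 CpG for Nfic. For Nfix it was 49.2% with 11 CpG at start 1, 58.4% with 4 at start 2, 52.4% with 7 at start 3 and 42.0% with 1 at start 4, against a median of 52.4% with 6 CpG over all windows.

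The early lineage comparison asks which genes set MGE cells at E14.5 apart from CGE cells at E16.5, the earlier day sampled in each lineage. All Nfia, Nfib and Nfix probe sets were lower in MGE cells, with a median difference of -2.83 over 18 probe sets, while Nfic was not called. At the brightest probe set of each gene, MGE cells were 4.87-fold lower for Nfia, 6.13-fold lower for Nfib and 10.15-fold lower for Nfix. For Nfib 1438244_at and Nfix 1459909_at and 1451443_at, all MGE E14.5 arrays lay below the filter level. These probe sets entered the test through arrays of the other groups, so their calls here are not independent of the filter.

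Nfia (probe set 1446990_at) measured 9.86, 9.93 and 9.22 in MGE cells at E14.5, against 11.63, 12.05 and 12.17 in CGE cells at E16.5. The groups did not overlap, and all MGE arrays lay below all CGE arrays. The difference was -2.28 ± 0.25 (SE, n = 3 arrays per group; limma, Benjamini-Hochberg adjusted p = 0.0001), which is 4.87-fold lower. Over its 6 probe sets, the Nfia difference ran from -2.94 to -2.28. The largest, of 1427733_a_at, is of uncertain size because its MGE mean of 6.92 lay below the filter level.

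Nfib (1434102_at) measured 10.32, 9.71 and 9.42 in MGE cells at E14.5, against 12.32, 12.44 and 12.54 in CGE cells at E16.5. Again no MGE array reached any CGE array. The difference was -2.62 ± 0.22 (limma, adjusted p = 1.47e-05), or 6.13-fold lower, and the 7 probe sets of Nfib ranged from -3.20 to -2.46.

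Nfix (1436363_a_at) measured 10.27, 9.89 and 8.26 in MGE cells at E14.5, against 12.81, 12.85 and 12.79 in CGE cells at E16.5. The groups did not overlap, but the third MGE array stood well below the other MGE arrays, and the SD of this group was 1.06. The difference was -3.34 ± 0.40 (limma, adjusted p = 0.000201). Probe set 1459909_at lay at 6.38, 6.67 and 5.99 in MGE cells and 10.08, 10.23 and 10.25 in CGE cells. It was called lower (limma, adjusted p = 5.99e-07), but its fitted difference of -3.84 ± 0.22 is of uncertain size because the MGE arrays lay below the filter level. The same holds for 1451443_at, at -1.87 ± 0.32.

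Nfic (1429148_at) measured 7.62, 7.14 and 7.36 in MGE cells at E14.5, against 7.41, 7.79 and 7.26 in CGE cells at E16.5. These values lay close to the filter level and overlapped. The difference was -0.11, with a 95% interval of -0.72 to 0.49 (limma, adjusted p = 0.867). The differences of the other NFI genes lay outside this interval. Because values this dim cannot be told apart from an absent transcript, the interval does not bound a change in Nfic RNA.

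Counted over the family, 18 of 19 tested NFI probe sets were called lower in MGE cells at an adjusted p under 0.05, where 5.48% of all tested probe sets were. The same 18 had all MGE arrays below all CGE arrays, where 17.4% of all tested probe sets did. Their median difference was -2.83, beside -0.01 over all 16008. Probe sets of a gene share their RNA and often their target sequence, and they correlated at 0.951 to 0.998 for Nfia, 0.874 to 0.998 for Nfib and 0.885 to 0.999 for Nfix over the 12 arrays, so the 18 are not independent. With 1 probe set per gene, 3 of 4 genes were called. Markers of other cells moved in the same comparison. All 6 genes of the oligodendrocyte precursor list were called higher in MGE cells, and of 4 tested markers of the lateral eminence and olfactory lineage, Meis2 (-3.38) and Foxp2 (-2.43) were called lower, where 4.04% and 5.74% of 8795 genes were. The CGE means of all 6 precursor genes lay below the filter level. For Olig2, Sox10 and Nkx2-2 so did the MGE means (6.25, 6.21 and 5.92), so these calls do not show that the transcripts were present. The MGE means of Meis2 and Foxp2 (6.71 and 5.33) also lay below it, so the sizes of their gaps are uncertain. Foxp2 had means above it in CGE cells only, so its call is not independent of the filter. The list mean of the lateral markers was 7.14 to 7.47 in MGE cells at E14.5 and 8.71 to 10.37 in CGE cells at E16.5, and their part in the NFI difference was not tested.

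**Figure D2:**
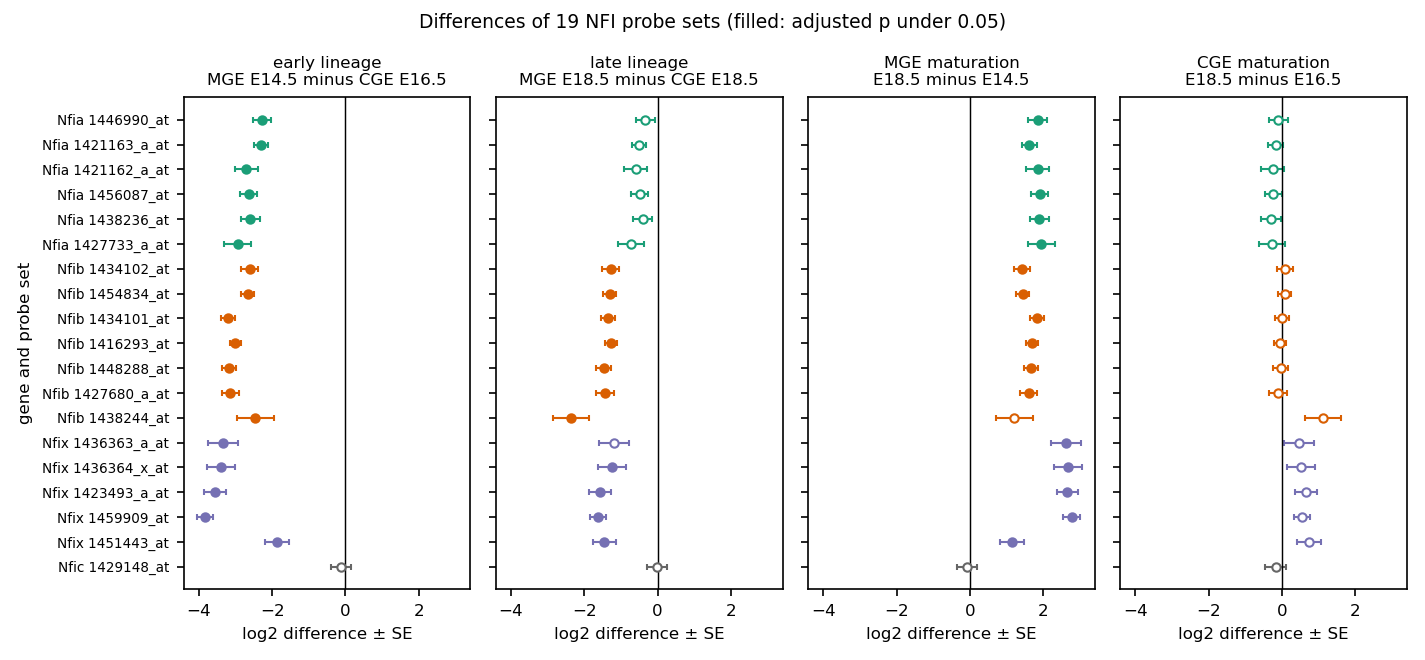
Log2 difference ± SE (x axis) of the 19 tested NFI probe sets (y axis) in the 4 comparisons, with filled points at an adjusted p under 0.05. The early lineage panel has 18 filled points left of 0 and the MGE maturation panel 17 right of it, while the CGE maturation panel has none.

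The late lineage comparison sets MGE cells against CGE cells on the same embryonic day, E18.5. All 7 Nfib probe sets and 4 of 5 of Nfix were called lower in MGE cells, and the gaps were 2.40-fold to 5.15-fold for Nfib and 2.27-fold to 3.08-fold over the 5 of Nfix. The 5.15-fold gap was that of Nfib 1438244_at, whose MGE mean lay below the filter level, and the next largest Nfib gap was 2.78-fold. Nfia was no longer called, with differences of -0.72 to -0.34 over its 6 probe sets.

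Nfia (1446990_at) measured 11.58, 11.39 and 11.58 in MGE cells at E18.5, against 11.32, 11.9998 and 12.23 in CGE cells at E18.5. The groups overlapped because the first CGE array lay below all MGE arrays. The difference was -0.34 ± 0.25 (limma, adjusted p = 0.373), and adjusted p over the 6 probe sets ran from 0.0852 to 0.373, with 1 of the 6 at an unadjusted p under 0.05, as were 34.9% of all tested probe sets. Without CGE E18.5 replicate 1, Nfia differences of 1421163_a_at, 1427733_a_at, 1438236_at and 1456087_at were called, at -0.66, -1.10, -0.74 and -0.82. The calls of 1446990_at and 1421162_a_at did not change under any alternative, with adjusted p no lower than 0.0823 and 0.0665, and 1421163_a_at was also called with a trended prior (0.0473). CGE E18.5 replicate 1 gave the lowest CGE E18.5 value in 18 of the 18 Nfia, Nfib and Nfix probe sets. On that array the list mean of 4 markers of the lateral eminence and olfactory lineage was 10.83, against 10.34 and 10.06 on the other CGE E18.5 arrays, and the part of this in the NFI values was not tested.

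Nfib (1434102_at) measured 11.12, 11.39 and 11.20 in MGE cells at E18.5, against 12.11, 12.79 and 12.66 in CGE cells at E18.5. All MGE arrays lay below all CGE arrays. The difference was -1.28 ± 0.22 (limma, adjusted p = 0.00155). The other Nfib probe sets lay between -2.36 and -1.26, and the lowest belonged to the dim probe set 1438244_at, at 7.57, 7.04 and 6.53 in MGE cells and 8.59, 10.14 and 9.51 in CGE cells. Its MGE mean of 7.05 lay below the filter level, so the size of its gap is uncertain. It passed the filter on 7 arrays, all CGE arrays among them, so its call is not independent of the filter.

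Nfix (1436363_a_at) measured 11.78, 12.42 and 12.09 in MGE cells at E18.5, against 12.92, 13.44 and 13.48 in CGE cells at E18.5. These groups did not overlap either, yet the difference of -1.19 ± 0.40 missed the threshold (limma, adjusted p = 0.053), and adjusted p ran from 0.00149 to 0.158 over the alternatives. The other 4 Nfix probe sets were called, from -1.62 to -1.25, with 1459909_at at -1.62 ± 0.22 (limma, adjusted p = 0.000239). The call of 1436364_x_at was lost with array weights (adjusted p = 0.0693) and without MGE E18.5 replicate 1 (0.12) or replicate 3 (0.0788), or CGE E18.5 replicate 2 (0.0914) or replicate 3 (0.0938). That of 1451443_at was lost with array weights (0.0503).

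Nfic (1429148_at) measured 7.50, 7.19 and 7.20 in MGE cells at E18.5, against 6.62, 7.38 and 7.95 in CGE cells at E18.5, which spread around the MGE values. Its difference was -0.02, with an interval of -0.63 to 0.59.

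In all, 11 of 19 NFI probe sets were called lower, 7 of Nfib and 4 of Nfix, where 9.66% of all tested probe sets were, and 12 did not overlap, where 18.4% of all did. Of the 4 lateral eminence and olfactory markers, Meis2 (-3.65), Foxp2 (-3.26) and Foxp1 (-1.83) were called lower as well, where 9.58% of 8795 genes were, with list means of 8.10 to 8.38 in MGE cells at E18.5 and 10.06 to 10.83 in CGE cells at E18.5. The Foxp2 mean of MGE cells (5.97) lay below the filter level, so the size of its gap is uncertain, and its call is again not independent of the filter. Of the 7 pan GABAergic genes, 5 were called lower, with a list median of -0.75. Of the 8 tested radial glia and astrocyte genes, 6 were called higher and 1 lower, with a list median of 1.38, where 12.8% and 9.58% of genes were. Among the 6, Aldoc had a mean above the filter level in MGE cells at E18.5 only, so its call is not independent of the filter. The part of these lists in the NFI difference was not tested. The NFI count was 15 without CGE E18.5 replicate 1 and 10 to 12 without any other single array. Within arrays, the log2 ratio of Nfib over Nfia (brightest probe sets) was -0.46, 0.00 and -0.38 in MGE cells at E18.5, against 0.79, 0.79 and 0.42 in CGE cells at E18.5. The groups did not overlap and their means differed by -0.95, with an exact two-sided permutation p of 0.1, the smallest that 3 against 3 arrays allow. Nfix over Nfia differed by -0.85 in the same direction (exact p = 0.1), while Nfix over Nfib differed by 0.10 with overlap (exact p = 0.4). Adjusted over the 12 ratio comparisons made, no p was below 0.171.

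**Figure D3:**
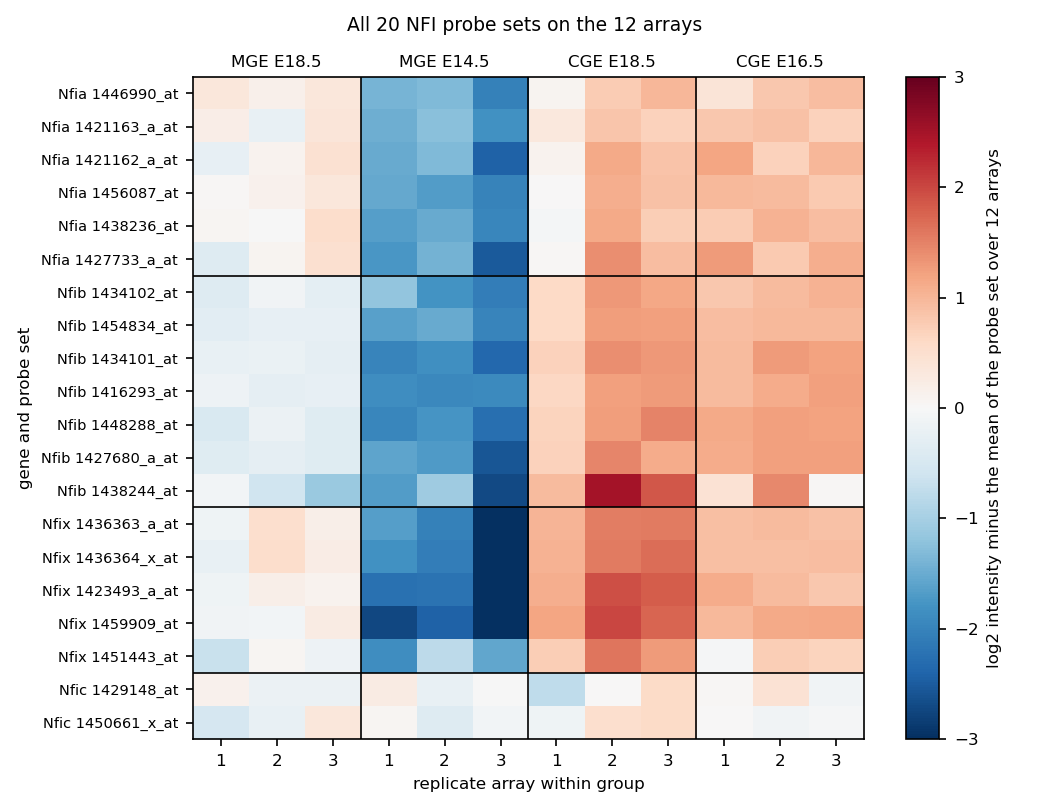
Log2 intensity minus the mean of the probe set over 12 arrays (colour) for the 20 NFI probe sets (y axis), with arrays along the x axis by group and replicate. Colours saturate at the ends of the scale. MGE E14.5 arrays are blue for Nfia, Nfib and Nfix, and CGE E18.5 replicate 1 is paler than the other arrays of its group.

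MGE maturation sets MGE cells at E18.5 against MGE cells at E14.5. Nfia, Nfib and Nfix were higher at E18.5, by 3.602-fold, 2.67-fold and 6.16-fold at their brightest probe sets. Nfic was again not called.

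For Nfia, the values quoted above for 1446990_at, 11.39 to 11.58 at E18.5 and 9.22 to 9.93 at E14.5, gave a difference of 1.85 ± 0.25 (limma, adjusted p = 0.000289). All E18.5 arrays lay above all E14.5 arrays. The other 5 Nfia probe sets lay between 1.63 and 1.95, the highest being 1427733_a_at, whose E14.5 mean of 6.92 lay below the filter level. Nfib (1434102_at) lay at 11.12 to 11.39 at E18.5 and 9.42 to 10.32 at E14.5, again without overlap, and the difference was 1.42 ± 0.22 (limma, adjusted p = 0.000953).

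Nfix (1436363_a_at) lay at 11.78 to 12.42 at E18.5 and 8.26 to 10.27 at E14.5. The groups were separate, and the difference was 2.62 ± 0.40 (limma, adjusted p = 0.000744), which was 2.02 without MGE E14.5 replicate 3. That array was the lowest of its group in 16 of 18 Nfia, Nfib and Nfix probe sets. It also had the lowest list mean of 8 radial glia and astrocyte markers, at 7.65 against 8.26 and 8.52 on the other MGE E14.5 arrays, and the part of this in the NFI values was not tested. The log2 ratio of Nfix over Nfib within arrays was 0.66, 1.03 and 0.89 at E18.5, against -0.05, 0.18 and -1.16 at E14.5, without overlap (exact permutation p = 0.1), and MGE E14.5 replicate 3 again lay far below the other arrays of its group.

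The dim Nfib probe set 1438244_at, at 7.57, 7.04 and 6.53 at E18.5 and 5.97, 6.58 and 4.94 at E14.5, was not called (1.22 ± 0.50, limma, adjusted p = 0.111), nor was Nfic (-0.08, interval -0.69 to 0.53). The remaining 17 of 19 were called higher at E18.5, where 10.3% of all tested probe sets were. Among them Nfix 1451443_at had the smallest difference (1.15), with its E14.5 arrays below the filter level, and lost its call without MGE E14.5 replicate 1 (adjusted p = 0.108) or replicate 3 (0.075), or MGE E18.5 replicate 2 (0.0855) or replicate 3 (0.0848). The same 17 had separate groups, where 19.3% of all did. Over the 18 Nfia, Nfib and Nfix probe sets the median difference was 1.84, beside -0.07 over all tested probe sets.

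Markers of oligodendrocyte precursors moved in the same comparison. Their list mean (6 genes, Pdgfra, Cspg4, Olig1, Olig2, Sox10 and Nkx2-2) was 10.995 to 11.73 in MGE cells at E18.5, 6.83 to 7.19 in MGE cells at E14.5, 5.16 to 5.58 in CGE cells at E18.5 and 4.86 to 5.26 in CGE cells at E16.5. All 6 were called higher in MGE maturation, where 11.1% of 8795 genes were, and all 6 in the late lineage comparison, where 12.8% were. Olig2, Sox10 and Nkx2-2 had means above the filter level in MGE cells at E18.5 only (10.24, 10.80 and 10.78). They entered the test through that group, so their calls are not independent of the filter. The list mean of radial glia and astrocyte markers was 9.97 to 10.27 in MGE cells at E18.5 and 7.65 to 8.52 in MGE cells at E14.5, and 7 of 8 were called higher, among them Slc1a3 (3.81), Hes5 (2.95) and Aldoc (2.5045). The E14.5 means of Slc1a3 and Aldoc (6.21 and 6.57) lay below the filter level, so the sizes of their differences are uncertain. Aldoc had a mean above that level in MGE cells at E18.5 only (9.07), so its call is not independent of the filter. The list mean of radial glia and astrocyte markers was also higher at the later day in CGE cells, at 9.24 to 9.68 at E18.5 and 8.37 to 8.73 at E16.5. In CGE maturation 3 of 8 were called higher, where 4.33% of genes were. Aqp4, an astrocyte gene of the same list, was not tested because it lay below the filter level, at group means of 3.59 to 3.79. Of the 7 pan GABAergic genes, 6 were called lower in MGE cells at E18.5 than at E14.5, where 9.02% of genes were, with a list median of -0.63. NFI genes are themselves expressed in glia, and the part of these cells in the rise of Nfia, Nfib and Nfix was not tested. The 2 tested microglia genes, Csf1r and Tyrobp, were called higher at E18.5 in MGE and in CGE cells, where 11.1% and 4.33% of 8795 genes were. Their list means were 6.78 to 7.93 in MGE cells at E18.5, 4.18 to 5.08 in MGE cells at E14.5, 7.42 to 8.28 in CGE cells at E18.5 and 4.90 to 6.49 in CGE cells at E16.5. Both genes had means below the filter level at the earlier days, 4.29 and 5.12 in MGE cells and 5.43 and 6.18 in CGE cells. They entered the test largely through E18.5 arrays, so their calls are not independent of the filter. The part of microglia in the NFI values was not tested. Of the pallial glutamatergic markers, Neurod6 and Neurod2 were tested and neither was called in any comparison, with CGE maturation differences of -1.41 and -1.28.

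**Figure D4:**
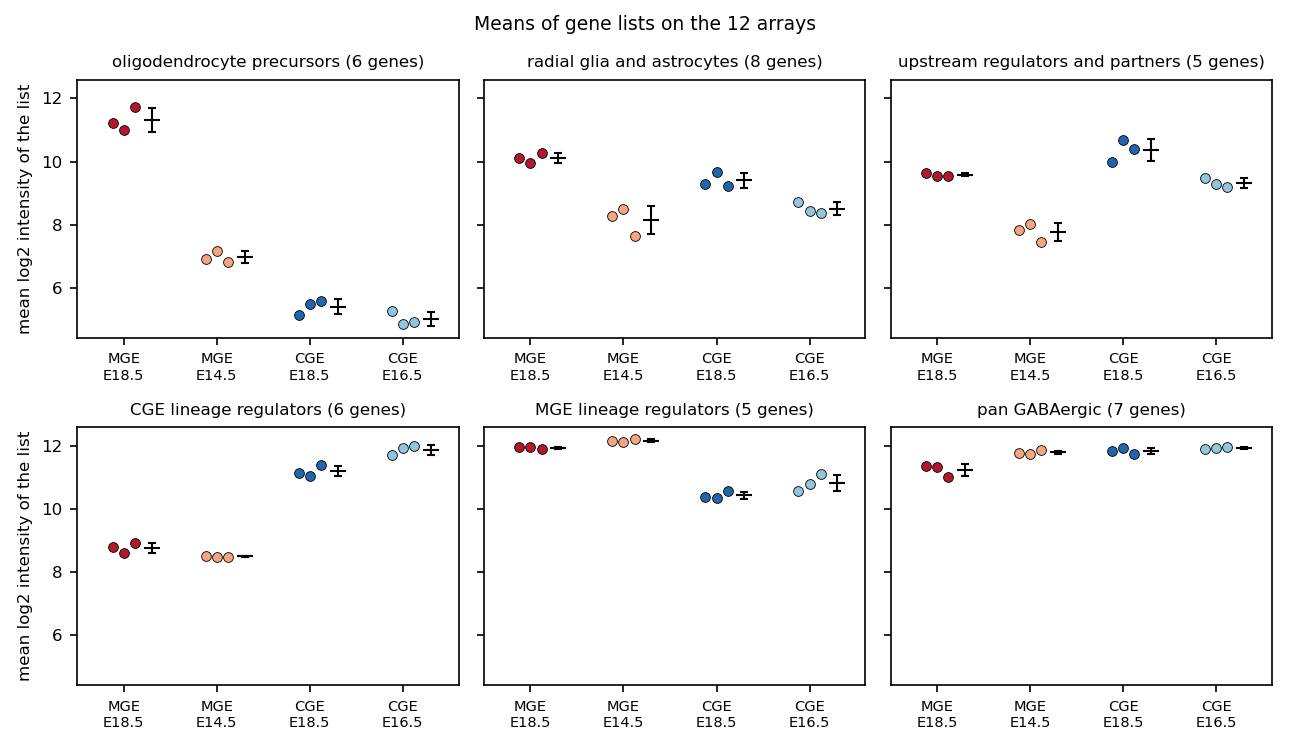
Mean log2 intensity (y axis) of 6 gene lists on each of the 12 arrays, by group (x axis), with mean ± SD of 3 arrays. The precursor list lies at 10.995 to 11.73 in MGE cells at E18.5 and at 4.86 to 7.19 in the other groups, while the lists of lineage regulators separate MGE from CGE arrays.

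CGE maturation sets CGE cells at E18.5 against CGE cells at E16.5. No NFI probe set was called in this comparison by limma, where 3.87% of all tested probe sets were called higher and 6.32% lower. At an unadjusted p under 0.05 there were 4, namely 1 of Nfib and 3 of Nfix, all higher at E18.5, where 26.4% of all tested probe sets were in either direction. Leaving out CGE E18.5 replicate 1 gave 1 call, of Nfix 1459909_at at 0.79.

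Nfia (1446990_at) measured 11.32, 11.9998 and 12.23 in CGE cells at E18.5 and 11.63, 12.05 and 12.17 in CGE cells at E16.5, with full overlap. The difference was -0.10, with an interval of -0.64 to 0.45. Nfib (1434102_at) measured 12.11, 12.79 and 12.66 at E18.5 and 12.32, 12.44 and 12.54 at E16.5, a difference of 0.09 with an interval of -0.40 to 0.58. For these 2 probe sets the interval lay below the difference measured in MGE cells, where the days compared lie further apart.

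Nfix (1436363_a_at) measured 12.92, 13.44 and 13.48 in CGE cells at E18.5 and 12.81, 12.85 and 12.79 in CGE cells at E16.5. The E18.5 arrays all lay above the E16.5 arrays, as they did for 1436364_x_at and 1459909_at, which makes 3 of 5 Nfix probe sets, where 9.17% of all tested probe sets did. The difference was 0.47, with an interval of -0.41 to 1.34 (limma, adjusted p = 0.494), and the 5 Nfix differences ran from 0.47 to 0.74. The Nfix over Nfia ratio within arrays was 1.61, 1.44 and 1.24 at E18.5, against 1.18, 0.80 and 0.62 at E16.5, a difference of 0.56 without overlap (exact permutation p = 0.1).

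The Nfib probe set 1438244_at differed from the other 6 of its gene. It measured 8.59, 10.14 and 9.51 in CGE cells at E18.5 and 8.09, 9.10 and 7.68 in CGE cells at E16.5, a difference of 1.12 ± 0.50 (limma, adjusted p = 0.176), whereas the other 6 lay between -0.11 and 0.09.

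**Figure D5:**
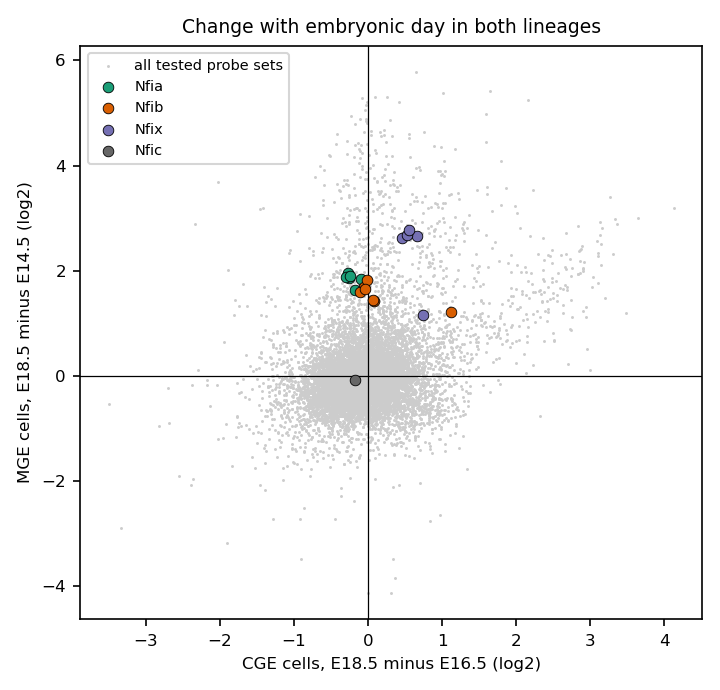
Log2 difference of E18.5 minus the earlier day in MGE cells (y axis) against the same in CGE cells (x axis), for all tested probe sets (grey) and the NFI probe sets (colours). Nfia lies between 1.63 and 1.95 on the y axis and between -0.30 and -0.10 on the x axis, and Nfix between 1.15 and 2.78 on the y axis and 0.47 and 0.74 on the x axis.

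The change of the lineage difference, late minus early, tests directly whether the gap between the lineages moved, and equals MGE maturation minus CGE maturation. It was positive and called for 16 of 19 NFI probe sets, 6 of Nfia, 6 of Nfib and 4 of Nfix, where 6.65% of all tested probe sets were called higher. For Nfia (1446990_at) it was 1.95 ± 0.35 (limma, adjusted p = 0.00464), for Nfib (1434102_at) 1.33 ± 0.32 (limma, adjusted p = 0.0217) and for Nfix (1436363_a_at) 2.16 ± 0.57 (limma, adjusted p = 0.035). The median over the 18 Nfia, Nfib and Nfix probe sets was 1.89, beside 0.02 over all tested. The exceptions were Nfib 1438244_at at 0.09, Nfix 1451443_at at 0.41 and Nfic at 0.10. The count ran from 13 to 16 when single arrays were left out, and the brightest Nfix probe set had adjusted p values of 0.00772 to 0.125 over the alternatives.

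Genes known to act upstream of or beside NFI were followed as a list of 5. Sox9, a transcription factor of neural progenitors and glia that partners NFIA, was at 10.82 in MGE cells at E18.5 and 8.0003 in MGE cells at E14.5 (2.82 ± 0.27, limma, adjusted p = 1.7e-05), and at 9.95 in CGE cells at E18.5 and 8.67 in CGE cells at E16.5 (1.28 ± 0.27, adjusted p = 0.0139). Notch1, the receptor of a pathway that induces Nfia in mouse progenitors, was 2.67 ± 0.29 higher in MGE cells at E18.5 than at E14.5. Pou3f2, a POU factor of neural progenitors and migrating neurons, was 2.44 ± 0.26 higher and Zbtb20, a zinc finger repressor, 1.39 ± 0.19 higher. In MGE maturation 4 of 5 were thus called higher, against 2 of 5 in CGE maturation (Sox9 and Pou3f2), where 11.1% and 4.33% of 8795 genes were. In the early lineage comparison 3 of 5 were called lower in MGE cells, where 5.74% of genes were. These were Pax6, a homeodomain factor, at -4.27 ± 0.32, Pou3f2 at -1.25 ± 0.26 and Notch1 at -1.17 ± 0.29. In the late comparison Pax6 was lower, at -5.25 ± 0.32, and Sox9 higher, at 0.87 ± 0.27. The Pax6 means of MGE cells lay below the filter level on both days, so the sizes of these gaps are uncertain. Pax6 had means above that level in CGE cells only, so its calls are not independent of the filter. Sox9 and Pax6 also stand in the list of radial glia and astrocyte markers.

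Of 13 genes listed as NFI targets or parts of the NFI programme in neural tissue, 9 were in the table and tested. They did not move as a block. Apcdd1, a Wnt inhibitor that NFIA activates in glial precursors, was at 9.20 in MGE cells at E18.5, 7.56 in MGE cells at E14.5, 10.41 in CGE cells at E18.5 and 10.08 in CGE cells at E16.5. It was thus lower in MGE cells early (-2.52 ± 0.28, limma, adjusted p = 0.000125) and late (-1.21 ± 0.28, adjusted p = 0.00966), and higher in MGE cells at E18.5 than at E14.5 (1.64 ± 0.28, adjusted p = 0.00181).

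Mmd2 and Zcchc24, targets of SOX9 and NFIA in mouse glial precursors, had another pattern. Zcchc24 was at 8.87 in MGE cells at E18.5, 5.09 in MGE cells at E14.5, 4.78 in CGE cells at E18.5 and 4.89 in CGE cells at E16.5. Both were called higher in the late lineage comparison and in MGE maturation. Zcchc24 had a mean above the filter level in MGE cells at E18.5 only and entered the test through that group, so its calls are not independent of the filter. The fitted differences of Zcchc24 (4.09 ± 0.21 and 3.79 ± 0.21) and the late one of Mmd2 (2.63 ± 0.24) are of uncertain size, being set against means below the filter level, and Mmd2 was 2.37 ± 0.24 higher in MGE maturation. Fabp7, the fatty acid binding protein of radial glia, was higher in MGE cells early (1.01 ± 0.15) and late (1.88 ± 0.15), and at E18.5 in MGE cells (1.61 ± 0.15) and CGE cells (0.74 ± 0.15). Ezh2, the methyltransferase of Polycomb repressive complex 2 and a target that NFIB represses in mouse cortex, was lower in MGE cells at E18.5 than in CGE cells at E18.5 (-0.52 ± 0.14) and than in MGE cells at E14.5 (-0.59 ± 0.14). Efnb1, an ephrin, was lower in the late comparison (-0.59 ± 0.13) and Bbx, an HMG box factor, higher in CGE cells at E18.5 than at E16.5 (0.77 ± 0.21). Over the list, 1 gene was called higher and 1 lower in the early comparison, where 4.04% and 5.74% of 8795 genes were. The counts were 3 and 3 in the late one (12.8% and 9.58% of genes), 4 and 1 in MGE maturation (11.1% and 9.02%), and 2 and 0 in CGE maturation (4.33% and 6.08%). Zcchc24 is among the genes counted higher in the late comparison and in MGE maturation.

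The genes whose levels over the 12 arrays were most like those of each NFI gene were found among 8794 others by Pearson r, a description in which most of the agreement comes from the 4 groups. Nfia and Nfix shared their closest gene, Zbtb18, a zinc finger repressor of cortical development (r = 0.974 and 0.986). Zbtb18 was at 11.16 in MGE cells at E18.5, 9.88 in MGE cells at E14.5, 11.73 in CGE cells at E18.5 and 11.60 in CGE cells at E16.5. The next for Nfia were C230057M02Rik (0.958), Sdccag8 (0.957), Fam181b (0.954) and Nfix (0.954). For Nfix the list went on with St18 (0.962), Nfib (0.959), Apcdd1 (0.957) and Nfia (0.954).

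Nfib was closest to Sall1, a spalt-like zinc finger factor (r = 0.983), followed by Prox1, the homeodomain factor of the CGE lineage (0.970), Mpdz (0.969), Gse1 (0.968) and Id4, an inhibitor of basic helix-loop-helix factors (0.968). Mpdz is the protein-coding gene next to Nfib in the RefSeq annotation. Prox1 was at 9.02 in MGE cells at E18.5 and 4.55 in MGE cells at E14.5, a difference of 4.47 ± 0.19 (limma, adjusted p = 4.09e-08) whose size is uncertain because the E14.5 mean lay below the filter level, and at 11.57 in CGE cells at E18.5 and 11.85 in CGE cells at E16.5. Of the 6 CGE lineage regulators it was the 1 called higher in MGE maturation, while Nr2f1 and Nr2f2 were called lower (-1.17 ± 0.12 and -0.78 ± 0.19). For Nfic the highest r was 0.827, with Abcf2, and its r with Nfia, Nfib and Nfix was 0.19, 0.16 and 0.07.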

How the data were processed

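RNA of sorted cells was measured on 12 arrays, 3 for each of 4 groups taken from the sample titles. The deposited values are on a log2 scale. According to the methods, the authors had background-corrected and normalised them with Bioconductor, while the submitters' processing notes name MAS5 without a version, so the algorithm is not settled. No genome build was named. Of 27094 probe sets, 34 controls, 571 with several symbols and 4150 with none were left out. Probe sets above the 40th percentile of their own array (7.10 to 7.17) on at least 3 arrays were tested (16008).

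For the differences, limma 3.58.1 (R 4.3.3) was run with lmFit and eBayes (1 mean per group, all 12 arrays, 8 residual degrees of freedom plus 3.66 from the prior), and p-values were adjusted by Benjamini-Hochberg over all tested probe sets of a comparison. The fit was tested on simulated data. Each gene was otherwise represented by its tested probe set with the highest mean. Named were all NFI probe sets, the 5 most similar genes of each NFI gene, and up to 4 called members per list and comparison with the largest differences, besides a few list members given for context. Members and lists were chosen with earlier results of these data known. Alternatives covered the filter, normalisation, array weights, prior, arrays in the fit, replicate number and each array left out. Dim values cannot be told apart from absent transcripts, and the number of arrays limits the precision. Replicate numbers were not used to pair arrays in the main fit. After removal of group means, same-number arrays of different groups correlated at -0.13 to 0.27 (18 pairs, 5 over 0.1, median -0.0045). Arrays with different numbers correlated at -0.29 to 0.23 (36 pairs, 6 over 0.1, median -0.0046). Sequences came from RefSeq tables of GRCm38.p6 (Python 3.11.15; figures with matplotlib 3.10.9).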

Additional observations from a re-analysis of the deposited data

Results flagged for a closer look

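The gap between MGE and CGE cells was narrower at E18.5 than at the earlier days for 16 NFI probe sets, by the test of the late minus the early lineage difference (limma, adjusted p under 0.05). For Nfia this change was 1.95 (1446990_at), 1.80 (1421163_a_at), 2.11 (1421162_a_at), 2.15 (1456087_at), 2.19 (1438236_at) and 2.22 (1427733_a_at). For Nfib it was 1.33 (1434102_at), 1.36 (1454834_at), 1.84 (1434101_at), 1.74 (1416293_at), 1.70 (1448288_at) and 1.71 (1427680_a_at). For Nfix it was 2.16 (1436363_a_at), 2.15 (1436364_x_at), 2.01 (1423493_a_at) and 2.22 (1459909_at). Of these, Nfib 1434102_at lost its call in 4 alternatives (adjusted p up to 0.127), Nfix 1436363_a_at in 8 (up to 0.125), Nfix 1436364_x_at in 5 (up to 0.0931) and Nfia 1427733_a_at in 1 (0.0501). The MGE E14.5 means of Nfia 1427733_a_at and Nfix 1459909_at (6.92 and 6.35) lay below the filter level, so the sizes of their changes are uncertain. The arrays at the earlier days were taken at E14.5 in MGE and E16.5 in CGE cells, which cannot be told apart from lineage.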

How the results depend on the processing

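Each value was recomputed under 22 alternatives. Fitting only the groups compared gave no value for the change of the lineage difference, and the filter at the 60th percentile left out Nfic 1429148_at and Nfix 1451443_at. Of 1986 single values, 1909 kept direction and call, 28 lost a call, 16 gained 1 and 33 turned direction, of which 0 were called. The cause was not tested. With 1 probe set per gene, 3, 1, 3 and 3 of 4 genes were called in the early lineage, late lineage, MGE maturation and change comparisons, since fewer features enter. Without single arrays the counts ran over 18 to 18, 10 to 15, 16 to 17, 0 to 1 (CGE maturation) and 13 to 16.

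The replicate block gave 1 call in CGE maturation (Nfix 1451443_at, 0.74, adjusted p = 0.0156) and added Nfib 1438244_at in MGE maturation (adjusted p = 0.0498), and changed no other NFI call. Averaging MGE E14.5 replicates 1 and 2 added Nfix 1436363_a_at in the late lineage comparison (-1.19, limma, adjusted p = 0.0443) and changed no other NFI call.

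In CGE maturation Nfib 1434101_at was 0.035 with quantile normalisation. Leaving out single arrays turned these uncalled values. Nfic 1429148_at ran from -0.24 to 0.037 (early), -0.37 to 0.30 (late), -0.20 to 0.045 (MGE maturation), -0.49 to 0.17 (CGE maturation) and -0.25 to 0.41 (change), and the change of Nfib 1438244_at from -0.35 to 0.47. In CGE maturation, Nfib ran from -0.14 to 0.21 (1434101_at), -0.17 to 0.16 (1416293_at), -0.29 to 0.091 (1427680_a_at), -0.21 to 0.20 (1448288_at), -0.051 to 0.29 (1434102_at) and -0.039 to 0.29 (1454834_at). Nfia ran from -0.29 to 0.17 (1446990_at), -0.47 to 0.036 (1421162_a_at), -0.58 to 0.10 (1427733_a_at), -0.57 to 0.028 (1438236_at) and -0.45 to 0.088 (1456087_at).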
